A study of Capra hircus with 9 samples.

Results

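The growth hormone and insulin-like growth factor (IGF) axis was described in goat mammary tissue through 11 transcripts of 9 genes. They are the growth hormone receptor (GHR), the IGF1 receptor (IGF1R), 6 suppressors of cytokine signaling (SOCS2 to SOCS7) and eukaryotic translation initiation factor 4E binding protein 1 (EIF4EBP1). Members were found by the protein description of each assembled transcript in the authors' table of differential transcripts, which held 9131 transcripts of 6477 assembled components. The transcript list of the whole assembly held 13 transcripts with these descriptions, so 2 of them, 1 of SOCS6 and 1 of SOCS7, were outside the differential table and had no value. SOCS4 and SOCS7 had 2 transcripts each in the table, and every other member had 1. No member shared its component with another transcript of the table, and all 9 symbols were in the RefSeq goat gene table (assembly ARS1.2).

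Poly(A)-selected RNA was sequenced from 9 mammary gland samples of Xinong Saanen dairy goats, 3 in each of 3 stages. Lactation samples were taken 100 days after birth of the kids and dry-off samples 310 days after it, when milking ends. Non-lactation samples came from goats outside milking and outside pregnancy, with no day given. No treatment or genotype is named in the labels, and they do not say whether the samples of a stage were separate animals, so a p-value here measures sample-to-sample spread that may be technical.

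Growth hormone acts through GHR, a cytokine receptor that signals by the kinase JAK2 and the transcription factor STAT5, and it raises the production of IGF1 in the liver and locally. IGF1 binds IGF1R, a receptor tyrosine kinase that signals through insulin receptor substrates to PI3K, AKT and mTOR. SOCS proteins are feedback inhibitors of cytokine receptors, and SOCS2 is the member best known for limiting growth hormone signalling in mice. EIF4EBP1 holds the cap-binding protein eIF4E inactive until mTOR phosphorylates it, so it couples growth factor and nutrient signals to translation. Growth hormone raises milk yield in ruminants, and IGF1 is known as a survival factor of mammary epithelium.

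Values are the authors' mean RPKM of a stage (read counts scaled by transcript length and library size), which adjusts for length. Levels of different transcripts are set side by side on that scale. Such comparisons also depend on how completely each transcript was assembled and on shared reads, which were not assessed here. Values of single samples, their spread and their depth were not analysed here, so no SD is given. A transcript is called changed where the authors' false discovery rate (FDR) was below 0.05, and "rose" and "fell" are used only for such calls. RPKM is relative to all reads of a stage, and 3 milk transcripts (alpha-lactalbumin and GLYCAM1) took up 49.9% of all mean RPKM of the table in lactation, 0.523% at dry-off and 21.5% in non-lactation. The median log2 ratio of dry-off over lactation across the table was 2.11, and 1.00 over 44 ribosomal protein transcripts. A log2 ratio between 0 and 2.11 is thus a higher RPKM at dry-off by less than for the median transcript. In bulk tissue, fewer cells of a type and less RNA per cell cannot be told apart.

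GHR had a lower mean in lactating glands than in either other stage, but its FDR missed the threshold. The authors' deposited table gives GHR a mean of 1.97 RPKM in lactation, 11.2 RPKM at dry-off and 8.62 RPKM in non-lactation. The dry-off mean was 5.69-fold the lactation mean (log2 ratio 2.51) with p = 0.0303 and FDR 0.0675 per the authors' deposited table. The non-lactation mean was 4.39-fold the lactation mean, with p = 0.000541 and FDR 0.112 per the authors' deposited table. That p-value was the 89th smallest of 9125 but did not pass by FDR, and the one for dry-off against lactation was the 7144th smallest of 9129. GHR thus had its lowest mean in lactation, and the means of the other stages, 1.30-fold apart, did not pass (p = 0.294 in the authors' deposited table). By rank among all transcripts, which does not depend on the scale of a stage, GHR stood at percentile 60.9 in lactation, 68.9 at dry-off and 74.9 in non-lactation.

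IGF1R rose at dry-off, by less than the median transcript. Its means in the authors' deposited table were 5.15 RPKM in lactation, 17.4 RPKM at dry-off and 9.98 RPKM in non-lactation. IGF1R was 3.38-fold higher at dry-off than in lactation (log2 1.76, FDR 0.00878 per the authors' deposited table), the direction turning to −0.35 when centred on the table median. Non-lactation lay between the other stages for IGF1R, with p = 0.0215 against lactation and p = 0.00549 for dry-off against it, and FDRs of 0.168 and 0.156 in the authors' deposited table. Its rank stayed within a narrow band, at percentiles 82.0, 80.7 and 78.5 of lactation, dry-off and non-lactation. The receptor for IGF1 was thus the more abundant of the pair in every stage, but its lead narrowed. The ratio of IGF1R to GHR, which is free of the scale of a stage, was 2.62 in lactation, 1.56 at dry-off and 1.16 in non-lactation. These ratios of means carry no error, and their difference between stages was not tested.

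**Figure D1:**
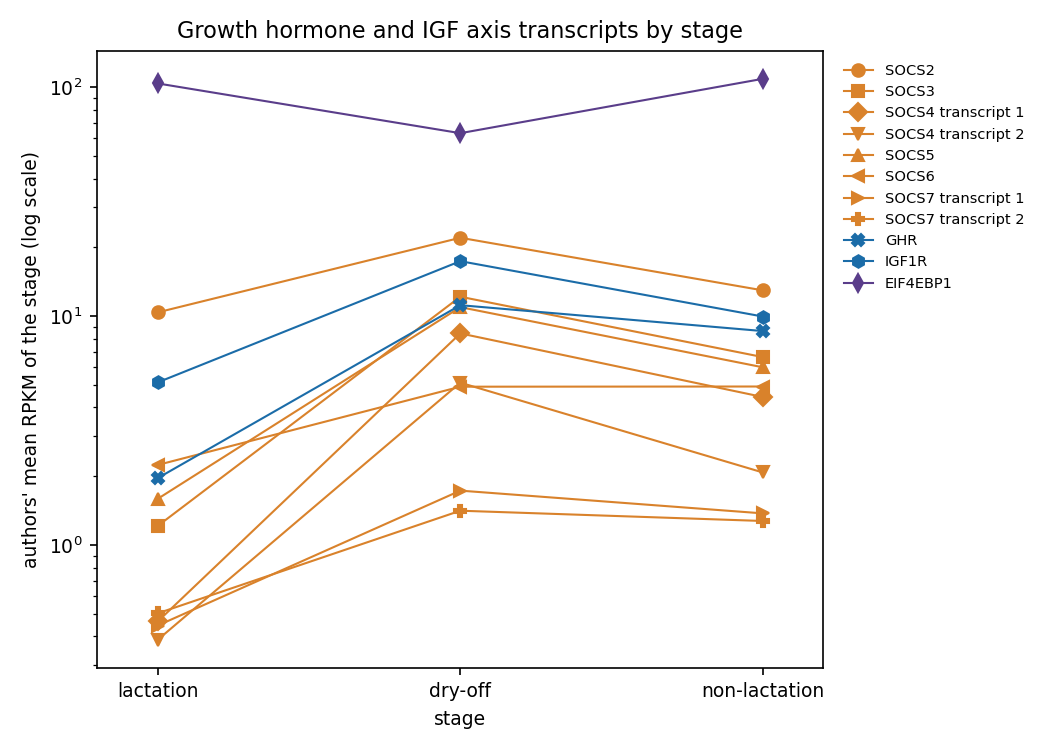
Authors' mean RPKM (log axis) of the 11 member transcripts in lactation, dry-off and non-lactation, 1 line per transcript, with receptors in blue, SOCS transcripts in orange and EIF4EBP1 in purple; each point is a mean of 3 samples and has no error bar because no value per sample was used. EIF4EBP1 is the highest line and the one that dips at dry-off (63.1 RPKM), while all others are lowest in lactation.

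SOCS2 was the most abundant SOCS transcript in every stage and also rose at dry-off, with the smallest ratio of the 8 SOCS transcripts. SOCS2 had means of 10.4 RPKM in lactation, 22.04 RPKM at dry-off and 12.98 RPKM in non-lactation per the authors' deposited table. It was 2.12-fold higher at dry-off than in lactation (log2 1.08, FDR 0.00709 per the authors' deposited table), which becomes −1.03 when centred on the table median and 0.08 on the ribosomal median. Its mean was highest at dry-off (p = 0.0107 and FDR 0.164 against non-lactation), and non-lactation was 1.25-fold lactation with p = 0.203 in the authors' deposited table. The rank of SOCS2 among all transcripts went from percentile 90.8 in lactation to 85.3 at dry-off and 83.9 in non-lactation.

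SOCS3, which restrains signalling by IL-6 family cytokines and leptin, rose from 1.22 to 12.2 RPKM at dry-off (10.02-fold, FDR 0.0420) per the authors' deposited table. Its mean in non-lactation was 6.64 RPKM per the authors' deposited table, between the other stages and separated from neither (FDR 0.216 and 0.222). SOCS5, known in human cells to limit EGF receptor signalling, rose from 1.60 to 10.97 RPKM (6.87-fold, FDR 0.0272) and had 5.99 RPKM in non-lactation per the authors' deposited table. Both rises exceeded the table median, by log2 1.22 for SOCS3 and 0.67 for SOCS5.

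SOCS4, a close relative of SOCS5, had the largest ratios of dry-off over lactation among the members. The first SOCS4 transcript had 0.465 RPKM in lactation, 8.42 RPKM at dry-off and 4.44 RPKM in non-lactation per the authors' deposited table. Its dry-off mean was 18.1-fold the lactation mean, with FDR 0.0511 per the authors' deposited table, just outside the threshold. The second SOCS4 transcript rose from 0.387 to 5.13 RPKM (13.3-fold, FDR 0.0374) and had 2.08 RPKM in non-lactation per the authors' deposited table. Both transcripts were thus below 1 RPKM in lactation, a low level to divide by, and 1 of them passed.

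SOCS6 and SOCS7, which bind insulin receptor substrates in mouse and human cells, had the smallest ratios of the family after SOCS2. The SOCS6 transcript had 2.24 RPKM in lactation, 4.93 RPKM at dry-off and 4.94 RPKM in non-lactation per the authors' deposited table. Its lowest mean was in lactation (FDR 0.0679 for dry-off against lactation in the authors' deposited table), and the means of the other stages were almost equal (p = 0.993). The first SOCS7 transcript had 0.446, 1.73 and 1.38 RPKM in lactation, dry-off and non-lactation per the authors' deposited table, with FDR 0.0515 for dry-off against lactation. The second SOCS7 transcript rose from 0.504 to 1.42 RPKM (2.81-fold, FDR 0.0358) and had 1.28 RPKM in non-lactation per the authors' deposited table, its log2 ratio of 1.49 turning to −0.62 when centred on the table median and to −0.13 when scaled without milk transcripts. Against lactation, its non-lactation mean had the 24th smallest p-value of the table (p = 0.000133, FDR 0.0973 per the authors' deposited table). The ranks of SOCS6 and of both SOCS7 transcripts were lower at dry-off than in lactation, going from percentile 64.4 to 41.4 for SOCS6, from 21.6 to 13.1 for the first SOCS7 transcript and from 24.4 to 9.60 for the second.

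The make-up of the SOCS pool differed between the stages. SOCS2 made up 60.3% of the summed RPKM over the 8 SOCS transcripts in lactation, 32.98% at dry-off and 32.7% in non-lactation. SOCS3 held 7.04%, 18.2% and 16.7% in the same order, SOCS4 held 4.93%, 20.3% and 16.4%, and SOCS5 held 9.24%, 16.4% and 15.1%. The summed level was 17.3 RPKM in lactation, 66.8 RPKM at dry-off and 39.7 RPKM in non-lactation. The SOCS2 share was thus almost equal at dry-off and in non-lactation, while SOCS6, with 13.0%, 7.38% and 12.4%, had its smallest share at dry-off. The ratio of SOCS2 to GHR was 5.30 in lactation, 1.97 at dry-off and 1.51 in non-lactation, and that of SOCS3 to SOCS2 was 0.117, 0.553 and 0.511. The transcripts of SOCS4, and those of SOCS7, belong to separate components and may be parts of the same RNA, so adding them can overstate the share. At dry-off each SOCS4 transcript alone (8.42 and 5.13 RPKM) was below SOCS3 (12.2 RPKM). The SOCS6 and SOCS7 transcripts outside the differential table had no value and are not in the pool. Shares and ratios of means have no error here and were not tested.

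**Figure D2:**
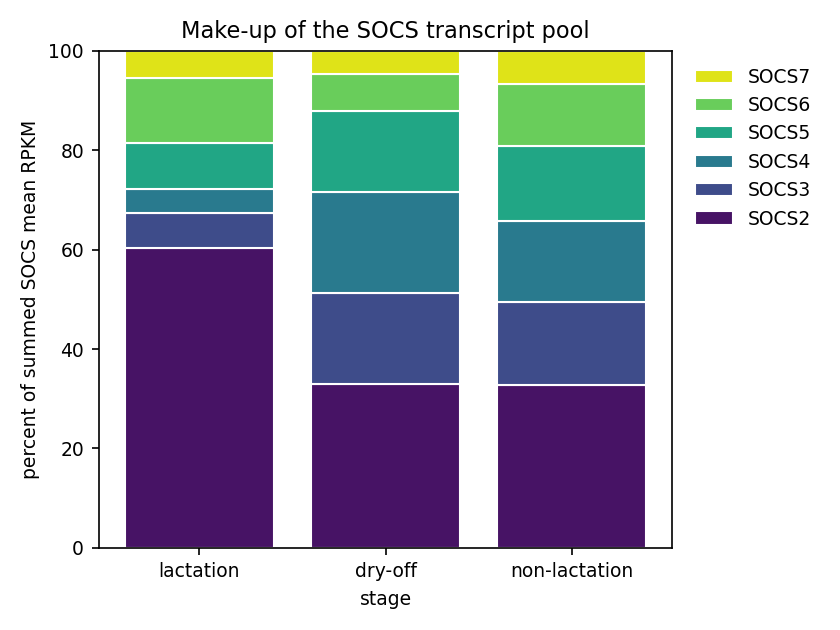
Stacked bars of the percent of summed SOCS mean RPKM held by SOCS2 to SOCS7 in each stage, with the transcripts of SOCS4 and of SOCS7 added together; there are no error bars because no value per sample was used. SOCS2 takes 60.3% of the lactation bar and 32.98% of the dry-off bar, and SOCS3, SOCS4 and SOCS5 take larger parts in the dry-off and non-lactation bars.

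EIF4EBP1 was the most abundant member and the one that fell at dry-off. Its means in the authors' deposited table were 104 RPKM in lactation, 63.1 RPKM at dry-off and 109 RPKM in non-lactation. Dry-off was 0.606-fold lactation (log2 −0.72, FDR 0.0251 per the authors' deposited table), and the sign is the same as deposited, when centred on the table median (−2.83), on the ribosomal median (−1.73) or when scaled without milk transcripts (−2.34). EIF4EBP1 was 1 of 63 transcripts called lower at dry-off, and of the 240 with a lower dry-off mean. The 63 are 0.690% of the 9129 transcripts of the differential table with a p-value. Its fall was the 60th in size among those 63. Non-lactation was close to lactation, 1.05-fold with p = 0.487 in the authors' deposited table. Dry-off was also 0.579-fold non-lactation, with p = 0.00935 and FDR 0.163 per the authors' deposited table. EIF4EBP1 was thus high in lactation and in non-lactation and low at dry-off, at percentiles 98.9, 98.1 and 94.8 of the table.

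Transcripts of the binding partner of EIF4EBP1 had higher means at dry-off, as did most of the table. Of 6 transcripts described as eIF-4E, 4 rose and 0 fell (66.7%, near the 65.9% of the table), and the 2 others had higher means at dry-off without passing. Their median log2 ratio was 1.69, below the 2.11 of the table, and 2 of the 6 lay above that median. The eIF-4E transcript with the smallest FDR rose from 3.43 to 14.9 RPKM (FDR 0.00990) and had 8.37 RPKM in non-lactation per the authors' deposited table. Summed over the 6 transcripts, which can share reads and can stand for several eIF4E genes, the mean RPKM was 18.9 in lactation, 79.9 at dry-off and 45.6 in non-lactation. EIF4EBP1 was therefore 5.49 times the summed eIF-4E level in lactation, 0.790 times at dry-off and 2.39 times in non-lactation, a ratio that does not depend on the scale of a stage. It compares RNA levels and gives nothing on protein or phosphorylation, and it was not tested. Of the other eIF4 factors, eIF4B, a helper of the RNA helicase eIF4A, rose from 64.6 to 175 RPKM (FDR 0.0272) per the authors' deposited table, which is −0.67 on the log2 scale when centred on the table median. A transcript described as eIF-4A rose from 13.7 to 58.8 RPKM (FDR 0.00284 per the authors' deposited table), at the table median. A more abundant eIF-4A transcript had 43.4 and 62.2 RPKM (log2 0.52) and did not pass (FDR 0.150 per the authors' deposited table). One described as eIF-4F, the name of the cap-binding complex, rose from 9.82 to 30.4 RPKM (FDR 0.0124 per the authors' deposited table), log2 −0.48 when centred on that median.

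**Figure D3:**
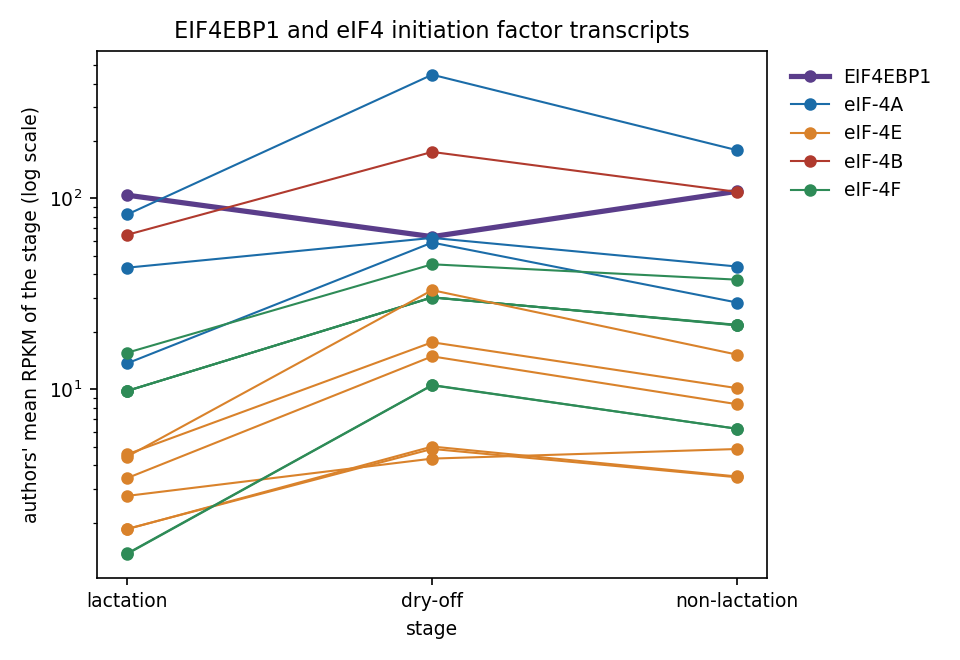
Authors' mean RPKM (log axis) of EIF4EBP1 (thick purple line) and of 16 transcripts described as eIF-4A, eIF-4B, eIF-4E or eIF-4F by stage, 1 line per transcript and no error bars. All 16 initiation factor lines are higher at dry-off than in lactation, while EIF4EBP1 goes from 104 to 63.1 RPKM.

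Between dry-off and lactation, 6 of 11 member transcripts rose and 1 fell. Of the 9129 transcripts of the differential table with a p-value, 65.9% rose, so the share of members that rose is not above that of the table. The risers were IGF1R, SOCS2, SOCS3, SOCS5, 1 of 2 SOCS4 transcripts and 1 of 2 SOCS7 transcripts. By unadjusted p below 0.05, 10 members were higher and 1 was lower, against 86.9% and 1.29% of the table. The median log2 ratio of the members was 1.96, beside 2.11 for the table, and they ranged from −0.72 to 4.18. Relative to the table median 5 of the 11 lay above it (GHR, SOCS3, SOCS5 and both SOCS4 transcripts), and relative to the ribosomal median 10 did. IGF1R, SOCS2 and the second SOCS7 transcript are thus rises as deposited that lie below the median transcript. The selection of the differential table bears on these shares, since 93.8% of its transcripts had p below 0.05 in at least 1 comparison. Shares of all transcripts are shares of this table and not of every transcript of the assembly.

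**Figure D4:**
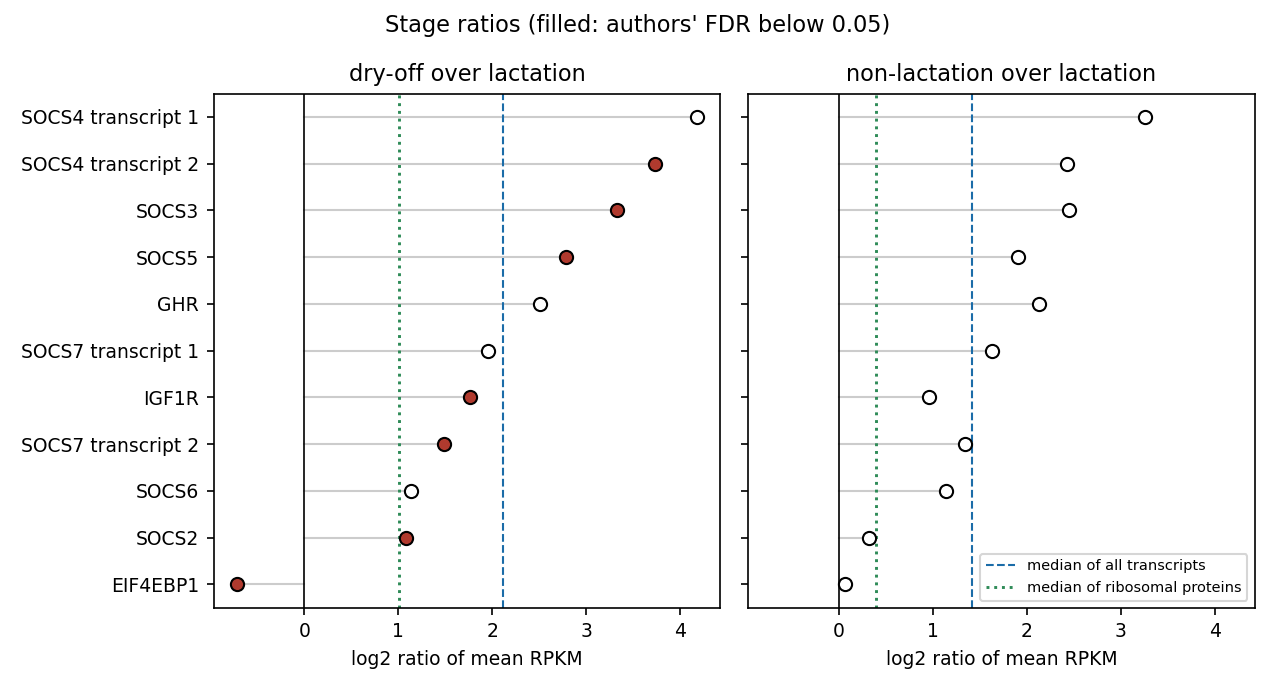
Log2 ratios of mean RPKM of the 11 member transcripts for dry-off over lactation (left) and non-lactation over lactation (right), with filled points where the authors' FDR was below 0.05, a dashed line at the median of all transcripts and a dotted line at the median of ribosomal protein transcripts; points are ratios of stage means with no error bars. On the left EIF4EBP1 lies at −0.72 and the others between 1.08 and 4.18, and on the right no point is filled.

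Between non-lactation and lactation, no member passed the FDR of the authors' deposited table, and 0.0110% of all transcripts did. By unadjusted p below 0.05, 6 of 11 members were higher and 0 lower, against 41.5% and 0.274% of the table. The 6 were GHR, IGF1R, SOCS5, both SOCS7 transcripts and the second SOCS4 transcript. All 11 means were higher in non-lactation as deposited, from log2 0.07 for EIF4EBP1 to 3.26 for the first SOCS4 transcript, with a median of 1.63 beside 1.41 for the table. Among these 11, EIF4EBP1 and SOCS2 lay nearest to lactation, at log2 0.07 and 0.32, both below the table median and the ribosomal median of 0.39. This comparison uses the same lactation samples as the one above, so the direction of both rests in part on them.

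Between dry-off and non-lactation, no member passed the FDR of the authors' deposited table, and the share of the table that passed was 0%. By unadjusted p below 0.05, 4 members were higher at dry-off (IGF1R, SOCS2, SOCS5 and the second SOCS4 transcript), against 38.5% of the table. EIF4EBP1 was lower by the same rule, as were 2.04% of the table. The median log2 ratio was 0.76 over the members and 0.70 over the table. The members nearest to equal in both stages were SOCS6 at log2 −0.0028, the SOCS7 transcripts at 0.15 and 0.33, and GHR at 0.38.

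Where the non-lactation mean lay between lactation (0) and dry-off (1) on the log2 scale differed among members. SOCS2 was at 0.295 and IGF1R at 0.543, nearer to lactation than the table's median of 0.665 (quartiles 0.557 and 0.768, over 8266 transcripts at least 2-fold apart between dry-off and lactation). GHR was at 0.850 and SOCS6 at 1.00, nearer to dry-off. EIF4EBP1 was at −0.09, on the far side of lactation. The order of stages was dry-off above non-lactation above lactation for 9 members, as for 91.1% of the table. EIF4EBP1 had non-lactation above lactation above dry-off, an order found in 1.26% of the table, and SOCS6 had non-lactation above dry-off above lactation, found in 5.56%.

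The ligand of the axis and its carrier were more than 10-fold higher at dry-off glands. IGF1 rose from 0.288 to 4.32 RPKM (15.02-fold, FDR 0.0309) and had 1.88 RPKM in non-lactation per the authors' deposited table. IGFBP3, the main carrier of IGFs in blood, rose from 15.7 to 245 RPKM (15.6-fold, FDR 0.0474) and had 111 RPKM in non-lactation per the authors' deposited table. Both rises exceeded the table median, by log2 1.80 for IGF1 and 1.85 for IGFBP3. IGF1 was below 1 RPKM in lactation (percentile 13.9), a low level to divide by, which bears on its fold and on its lactation ratios below. IGFBP3 was 54.5 times IGF1 in lactation, 56.7 times at dry-off and 59.4 times in non-lactation, so the pair kept nearly 1 ratio. IGF1 stood at 0.0559 of the level of its receptor IGF1R in lactation, 0.248 at dry-off and 0.188 in non-lactation. Ligand and carrier thus differed between stages by more than the receptor did, in means whose ratios were not tested.

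Related receptors had non-lactation means near or above dry-off. INSR, the insulin receptor, rose from 2.23 to 12.9 RPKM (5.77-fold, FDR 0.0219) and had 10.9 RPKM in non-lactation per the authors' deposited table. IGF2R, which takes up IGF2 for degradation, rose from 3.90 to 16.7 RPKM (4.29-fold, FDR 0.0234), at the table median, and had 17.1 RPKM in non-lactation per the authors' deposited table. The prolactin receptor PRLR, a cytokine receptor of the same family as GHR, had 4 near-identical transcripts of 1 component, of which 1 passed. That transcript had 0.709, 2.27 and 2.71 RPKM in lactation, dry-off and non-lactation (FDR 0.0492 for dry-off against lactation) per the authors' deposited table, and its log2 ratio of 1.68 is −0.43 when centred on the table median. The other 3 PRLR transcripts had FDRs of 0.0530, 0.0531 and 0.0569 in the authors' deposited table. The level of IGF1R was 2.31 times that of INSR in lactation, 1.36 times at dry-off and 0.917 times in non-lactation, so the order of these related receptors by mean was not the same in every stage.

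The wider pathway list, chosen with earlier results of these data known, held 185 transcripts with 50 descriptions, of which 124 rose and 0 fell at dry-off. That is 67.0%, near the 65.9% of the table, and its median log2 ratio was 2.05 beside 2.11. By group, 19 of 28 transcripts of JAK2, STAT5 and adaptors rose, 34 of 55 tyrosine phosphatases known by family name, 26 of 35 of PI3K and AKT, 20 of 30 of mTOR, 11 of 16 of eIF4 factors and 9 of 13 of RAS and MAP kinases. All 3 JAK2 transcripts, named after their values were seen, rose, with log2 ratios from 2.05 to 2.31. STAT5A and STAT5B, the transcription factors downstream of JAK2, rose in 2 of 5 and 3 of 4 transcripts, with median log2 ratios of 1.64 and 1.63, below the table median. None of 3 insulin receptor substrate transcripts passed. The most abundant, named after its values were seen, was the only transcript of the list with a lower dry-off mean. It had 6.18 RPKM in lactation and 5.33 RPKM at dry-off (FDR 0.205 per the authors' deposited table). The other 2 had higher dry-off means, with log2 ratios of 3.78 and 3.03, above the table median. Their FDRs were 0.0602 and 0.0692 in the authors' deposited table. Their lactation means, 0.338 and 0.367 RPKM, are low levels to divide by.

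**Figure D5:**
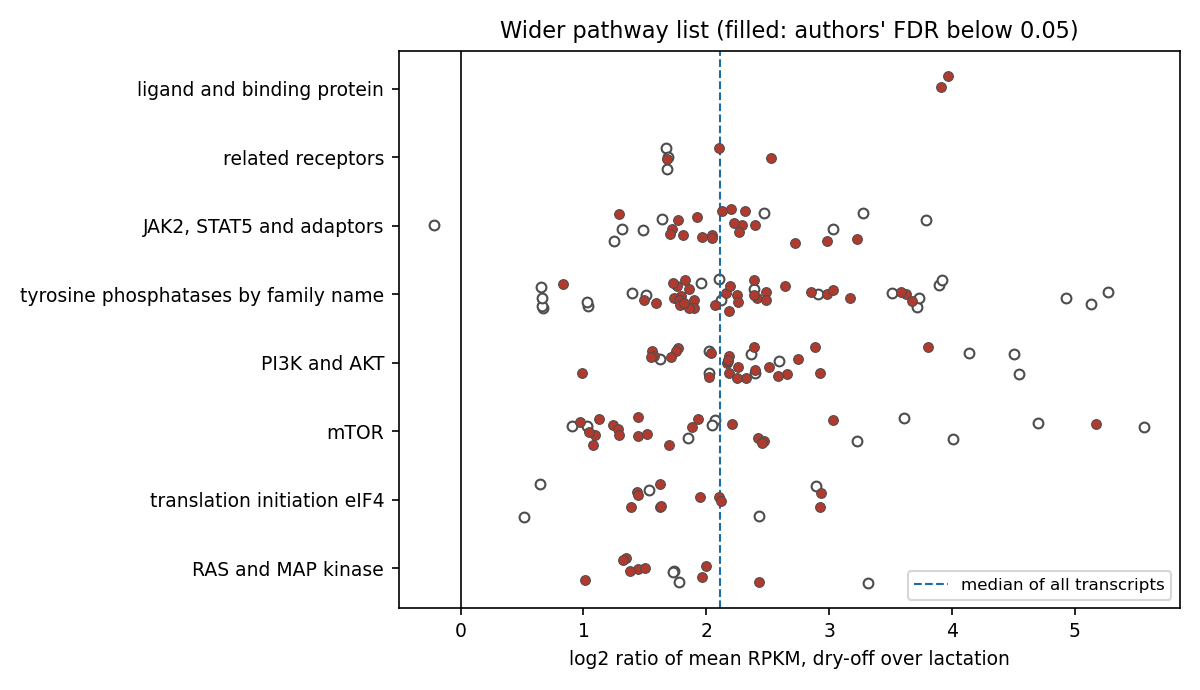
Log2 ratio of mean RPKM, dry-off over lactation, for the 185 transcripts of the wider pathway list by group, 1 point per transcript with vertical scatter added for visibility, filled where the authors' FDR was below 0.05, and a dashed line at the median of all transcripts (2.11). Points lie on both sides of the dashed line in most groups, and 1 point lies below 0.

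Among receptor adaptors, PTPN11, a phosphatase that relays growth factor signals to RAS, rose from 2.03 to 13.4 RPKM (FDR 0.00389) per the authors' deposited table. A transcript of the SOS family, exchange factors for RAS, rose from 2.16 to 11.4 RPKM (FDR 0.00806) and one of the SHC adaptor family from 4.52 to 17.6 RPKM (FDR 0.00986), log2 −0.15 when centred on the table median, in the authors' deposited table. A transcript described only as a protein-tyrosine phosphatase rose from 0.799 to 9.61 RPKM (FDR 0.000805 per the authors' deposited table).

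In the PI3K and AKT group of the list, a PI3K catalytic subunit rose from 1.38 to 9.28 RPKM (FDR 0.00515) per the authors' deposited table. A PI3K regulatory subunit rose from 3.18 to 15.9 RPKM (FDR 0.00521) per the authors' deposited table. Each is the transcript with the smallest FDR of several with its description. Others with the same descriptions did not pass, though all 35 transcripts of the group had higher means at dry-off. A transcript of PIK3R4 rose from 0.801 to 2.70 RPKM (FDR 0.0105 per the authors' deposited table), log2 −0.36 when centred on the table median. Another PIK3R4 transcript rose from 0.453 to 2.71 RPKM (FDR 0.0246 per the authors' deposited table), log2 0.47 when centred on that median. PIK3R4 is in this group, and in its count of 26 of 35, by the wording of its description alone. Its place on the route from IGF1R to AKT was not examined.

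Genes around mTOR spread on either side of the median transcript. DDIT4, a stress-induced inhibitor of mTOR complex 1, rose from 10.4 to 57.8 RPKM (5.54-fold, FDR 0.00404) per the authors' deposited table. A transcript of RICTOR, a subunit of mTOR complex 2, rose from 0.118 to 4.26 RPKM (FDR 0.00834) per the authors' deposited table. Its lactation mean is a low level to divide by, and 2 of 5 RICTOR transcripts rose. A p90 ribosomal S6 kinase transcript rose from 0.856 to 6.98 RPKM (FDR 0.00568) per the authors' deposited table. More abundant transcripts of that description had higher means at dry-off without passing. They went from 3.04 to 37.2 RPKM (FDR 0.0554) and from 2.39 to 10.03 RPKM (FDR 0.0595) per the authors' deposited table. A transcript of p70 ribosomal S6 kinase, the mTOR target beside EIF4EBP1, rose from 4.16 to 13.5 RPKM (FDR 0.00283) per the authors' deposited table, log2 −0.41 when centred on the table median. All 5 p70 S6 kinase transcripts rose, against 65.9% of the table, and all 5 lay below that median, but 4 of them belong to 1 component and can share reads.

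Most transcripts of the RAS and MAP kinase branch had ratios below that of the median transcript. ARAF and a transcript of MAP2K1, kinases that act in sequence above ERK, had log2 ratios of 1.44 and 1.32 (FDR 0.0134 and 0.00924 in the authors' deposited table), or −0.67 and −0.79 when centred on the table median. A transcript described as ERK1/2 was 2.83-fold higher (FDR 0.0164 per the authors' deposited table), or log2 −0.61 when centred on it. Of 13 transcripts of the branch, which does not hold the p90 S6 kinase transcripts listed with mTOR, 2 lay above the table median.

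Of 26 markers outside the luminal list, 17 rose at dry-off (65.4%), near the 65.9% of the table. Summed over their leading transcripts, 4 fibroblast and matrix markers had 224 RPKM in lactation, 1692 RPKM at dry-off and 1045 RPKM in non-lactation, and 3 of the 4 rose at dry-off per the authors' deposited table. The sums of 7 macrophage markers were 70.2, 670 and 267 RPKM (6 rose), those of 5 T and NK cell markers 14.2, 239 and 85.0 RPKM (3 rose), and those of 3 B cell markers 2.60, 43.6 and 13.8 RPKM (1 rose). Those of 5 endothelial markers were 31.2, 225 and 143 RPKM (3 rose). The adipocyte marker LIPE had 1.73, 4.34 and 5.44 RPKM and rose, and the myoepithelial marker ACTA2 had 303, 733 and 489 RPKM and did not pass. No marker was at 0 in any stage. Of luminal markers CDH1 rose from 7.73 to 49.0 RPKM, EPCAM had 39.97 and 82.3 RPKM without passing, and the milk protein LALBA fell from 60951 to 960.4 RPKM per the authors' deposited table, so epithelial markers were measured in every stage. The part of these shifts in the values of GHR, IGF1, IGFBP3 or the SOCS genes was not tested.

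The ratio of a member to a marker depended on the marker chosen, also within 1 cell type. Against the luminal marker CDH1, GHR was 0.254, 0.228 and 0.258 in lactation, dry-off and non-lactation, but against EPCAM, of the same list, it was 0.0492, 0.136 and 0.131. SOCS2 was 1.35, 0.450 and 0.388 of CDH1, and 0.260, 0.268 and 0.197 of EPCAM. EIF4EBP1 had its highest ratio in lactation and its lowest at dry-off against both, with 13.5, 1.29 and 3.26 of CDH1 and 2.60, 0.767 and 1.65 of EPCAM. Among fibroblast and matrix markers, IGFBP3 was 0.360, 0.399 and 0.263 of DCN, 1.92, 4.19 and 1.78 of LUM and 0.0913, 0.249 and 0.205 of VIM. IGF1 was 0.00661, 0.00703 and 0.00442 of DCN, 0.0352, 0.0739 and 0.0300 of LUM, and 0.00167, 0.00439 and 0.00345 of VIM. GHR was 0.0452, 0.0182 and 0.0203 of DCN, and 0.241, 0.192 and 0.138 of LUM. Against VIM it was 0.0114, 0.0114 and 0.0159, so it was not lowest in the same stage against each marker. SOCS3 was 0.186, 0.131 and 0.204 of CSF1R, the macrophage growth factor receptor, and was set against no other macrophage marker. These are ratios of means, given as a description.

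The authors sorted transcripts into stage profiles, and 4 members (IGF1R, SOCS2, SOCS5 and the second SOCS4 transcript) were in profile 14, which held 57.6% of the table. The other 6 members besides EIF4EBP1 were in profile 11, with 28.6% of the table, whose median RPKM was 0.859 in lactation, 5.05 at dry-off and 3.80 in non-lactation. EIF4EBP1 was in no listed profile, as were 8.05% of the table. The authors also deposited the number of correlated transcripts of each transcript, by a measure and threshold not given in the sources used here. Below the lower quartile of the table (6480) were EIF4EBP1 with 1425, SOCS6 with 2278, the SOCS7 transcripts with 6267 and 4183, SOCS2 with 6234 and GHR with 6309. The first SOCS4 transcript had 8011, SOCS3 had 8004, SOCS5 had 7974 and IGF1R had 7712, above the table median of 7544. The second SOCS4 transcript had 7518, just below it, and the median of the members was 6309. Profiles and correlations come from the same libraries as the means and are no independent evidence.

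The transcripts nearest to GHR and EIF4EBP1 in stage pattern were taken by distance of centred log2(mean RPKM + 1) over the 3 stages, which is few points, so that many transcripts lie close. The added 1 shrinks the ratios of transcripts with low means, so near transcripts can differ in fold change. The 5 nearest to GHR were laminin gamma 3, an HIV enhancer-binding protein, discs large 4, a PI3K regulatory subunit and biotin protein ligase, all within 0.0274 log2 units. Laminin gamma 3, a basement membrane protein, had 1.22, 8.04 and 6.21 RPKM in lactation, dry-off and non-lactation per the authors' deposited table. The 5 nearest to EIF4EBP1 were a pair of transcripts of GDP-L-fucose synthase, the chemokine description CCL27/28, a low-affinity IgG receptor and a cation efflux protein, within 0.0526 log2 units. CCL27/28, the IgG receptor and the cation efflux protein had low means and did not pass for dry-off against lactation (FDR 0.149, 0.193 and 0.0615 per the authors' deposited table). The nearer GDP-L-fucose synthase transcript, an enzyme that makes the fucose donor for glycans, had 14.2, 8.23 and 15.1 RPKM per the authors' deposited table (FDR 0.0403 for dry-off against lactation).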

How the data were processed

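RNA of 9 samples in 3 stages was sequenced as single reads after poly(A) selection, per the labels' protocols, and the submitters' processing notes name FastQC alone. The assembler, the aligner and the way of counting were not given in the sources used here. Per the file headers, the authors deposited mean RPKM values by stage. For every pair of stages the authors deposited a p-value with its FDR, from an unnamed test. The authors also deposited counts of correlated transcripts per transcript and counts of transcripts per pathway. The deposited log2 columns were not used; ratios were recomputed from the means with nothing added.

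Depth per sample is unknown here, so no interval was computed. The plan foresaw the authors' FDR where only means exist, and that was used, with no test of expression added. FDRs cover the authors' whole set, and only rows of this axis are printed. Members and lists were chosen with earlier results of these data known; descriptions were matched to symbols by wording. From the wider list all ligands, binding proteins and receptors are named, and up to 4 descriptions of each other group with the smallest FDR; some that the rule selects are not reported here. In 1 component, transcripts can share reads. Transcripts of 1 description are numbered by summed mean. The table median counts transcripts with a mean of 0 as infinite ratios. Counting and ratio functions were tested on simulated data. Alternatives were a stricter FDR (0.01), unadjusted p, a change of at least 2-fold, a minimum of 1 RPKM, 1 transcript per component, pseudocounts of 1 and 0.1, and centring; scaling without milk transcripts and the list without family-named phosphatases were added after seeing the data. Python 3.11.15, numpy 2.4.6, pandas 2.3.3 and matplotlib 3.10.9 were used.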

Additional observations from a re-analysis of the deposited data

How the results depend on the processing

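The member count of 6 higher and 1 lower in dry-off than in lactation became 2 and 0 at FDR below 0.01, 10 and 1 by unadjusted p below 0.05, and 6 and 0 with at least 2-fold. For all transcripts, 6016 higher became 1494 at FDR below 0.01, and 63 lower became 11 at FDR below 0.01, 118 by unadjusted p and 40 with 1 transcript per component. The wider list's 124 became 30 at FDR below 0.01, and 90 without phosphatases known by family name. By unadjusted p, non-lactation against lactation gave 6 members, 99 of the wider list and 3786 of all transcripts higher and 25 of all lower, while FDR below 0.01 left 0 of the 1 transcript called. Dry-off against non-lactation gave by unadjusted p 4 members higher and 1 lower, 68 and 1 of the wider list, and 3516 and 186 of all transcripts. Fewer or more calls follow from the thresholds themselves.

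Centred on the table median, dry-off over lactation turned to log2 −0.35 for IGF1R, −1.03 for SOCS2, −0.62 for the second SOCS7 transcript, −0.41 for p70 S6 kinase, −0.0097 for eIF-4A, −0.67 for ARAF, −0.67 for EIF4B, −0.79 for MAP2K1, −0.0087 for IGF2R, −0.15 for SHC, −0.61 for ERK1/2, −0.48 for eIF-4F, −0.43 for PRLR and −0.36 for the first PIK3R4 transcript named above. Scaled to the table sum without milk transcripts, it turned to −0.54 for SOCS2, −0.13 for the second SOCS7 transcript, −0.18 for ARAF, −0.18 for EIF4B, −0.30 for MAP2K1 and −0.12 for ERK1/2. None of the called ratios named in the text turned with a pseudocount or on the ribosomal median; among called transcripts of the wider list not named, 3 did on the ribosomal median (RHEB to −0.03, an AKT transcript to −0.01 and a tyrosine phosphatase to −0.17). No paired analysis was possible because the deposited values are stage means, and leaving out a replicate was not run for the same reason.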

Other observations

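The authors' pathway table placed the members in pathways of signalling, disease and other kinds, with SOCS6 in none. Of 156 transcripts listed for Jak-STAT signalling, the route from GHR to its target genes, 8 were members, and 103 rose and 0 fell at dry-off by the FDR of the authors' deposited table (66.0%, with a median log2 ratio of 2.44 beside 2.11 for the table). Insulin signalling held 173 transcripts, 5 of them members, of which 124 rose (71.7%, median log2 ratio 1.96) and 1 fell, EIF4EBP1. Of the 73 transcripts listed for mTOR signalling 49 rose (67.1%, median log2 ratio 2.03) and 1 fell, again EIF4EBP1. It was also the 1 transcript that fell among the 119 of ErbB signalling and the 104 of acute myeloid leukemia. IGF1R was listed in 10 pathways, in which the share of transcripts that rose went from 60.0% in glioma to 84.8% in adherens junction, with 68.9% in focal adhesion. These shares are descriptions beside the 65.9% of the table, and none was tested here.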
